A study of Homo sapiens with 9 samples.

Results

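ID1, ID2, ID3, ID4, SMAD6, SMAD7, SMAD9, BAMBI, ATOH8 and HAMP are 10 genes that bone morphogenetic protein (BMP) signalling is known to switch on. They were picked by symbol from the 20379 genes listed for HCCLM3 cells, and 8 of the 10 were among the 12657 genes with enough counts to be tested. ID4 and SMAD9 were not. ID1 and ID3 head the group because they had already been seen to stand higher with UXS1 and MRPL42 siRNA than with control siRNA in these same libraries. Their single-gene differences from control siRNA are therefore described with an interval or SE and without a printed p-value. Counts of genes past a threshold still take in ID1 and ID3, and nothing is read from their calls.

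HCCLM3 is an established line of human hepatocellular carcinoma cells, read here in bulk, so each library averages many cells. The study transfected the line with siRNA against UXS1, siRNA against MRPL42 or a non-targeting control siRNA, and sequenced poly(A) RNA. UXS1 encodes the enzyme that makes UDP-xylose, and MRPL42 a protein of the large subunit of the mitochondrial ribosome. No other allele or agent is given, nor the number of siRNAs per target or the time of harvest. Each of the 3 groups had 3 libraries, called a, b and c here. Separate cultures are not stated for them, so a p-value here weighs a difference against a spread between libraries that may be technical alone.

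The 9 libraries held 15266000 to 22400600 estimated counts. Neither targeted message passed the test. UXS1 had 138 to 145 CPM (counts scaled to the library total) in the UXS1 siRNA libraries, against 144, 151 and 180 CPM in control siRNA libraries a, b and c. Its log2 fold change was -0.17 with a 95% interval of -0.36 to 0.03. MRPL42 had 81.8 to 104 CPM in the MRPL42 siRNA libraries, against 100, 118 and 147 CPM in control siRNA libraries a, b and c. Its log2 fold change was -0.39 with an interval of -0.70 to -0.07. Their edgeR adjusted p was 0.348 and 0.185, against a threshold of 0.05. Both messages were thus highest among the controls in library c. Under its own siRNA UXS1 averaged 141 CPM and MRPL42 93.1 CPM, against 148 and 109 CPM in control libraries a and b alone. One of the controls, library c, differed widely from the rest, and the values of the BMP target genes are given with and without it throughout. The epithelial genes KRT8, KRT18, EPCAM and CDH1 summed to 6560 to 6908 CPM with UXS1 siRNA, 6128 to 8176 CPM with MRPL42 siRNA, 5583 and 5870 CPM in control libraries a and b and 7129 CPM in c. Of 12 hepatocyte markers 9 were tested, and the list summed to 312 to 315 CPM with UXS1 siRNA, 299 to 312 CPM with MRPL42 siRNA, 310 and 336 CPM in control libraries a and b and 285 CPM in c. APOA1, APOC3 and TTR, secreted products of mature hepatocytes, failed the filter on low counts.

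BMP ligands bind pairs of type I and type II serine/threonine kinase receptors at the cell surface. The type I receptor phosphorylates SMAD1, SMAD5 and SMAD9, which join SMAD4, enter the nucleus and bind GC-rich elements near their targets. The ID genes are among the most direct targets, and SMAD6, SMAD7 and BAMBI are induced in turn and damp the signal. In the liver the same pathway, fed by BMP2 and BMP6 from sinusoidal cells, drives HAMP, the gene of the iron hormone hepcidin.

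The DNA just before the RefSeq starts of ID1, ID3 and ATOH8 is shown because these 3 genes, with SMAD6, ID2 and HAMP, had CPM values with UXS1 and MRPL42 siRNA above those of all control siRNA libraries, and because the letters to which activated SMADs bind are known. The windows come from RefSeq on GRCh38.p14, which held all 10 genes, are read on the coding strand, and leave out stretches that GENCODE 29 gives as exon of any transcript beyond 30 bases. Capitals mark GGAGCC, a BMP element, on either strand (GGCTCC on the opposite one), and GTCTG, the SMAD4 box, on either strand (CAGAC). The stretches run from 250 to 7 bases before the RefSeq start of ID1, from 169 to 140 before that of ID3 and from 250 to 98 before that of ATOH8. GENCODE 29 has longer transcripts of ID3 and ATOH8, so the ID3 stretch lies inside that gene, in an exon of its longest transcript, and the ATOH8 stretch inside that gene but in no exon, while the ID1 stretch lies outside ID1.
ID1, chr20:31605039-31605282, plus strand: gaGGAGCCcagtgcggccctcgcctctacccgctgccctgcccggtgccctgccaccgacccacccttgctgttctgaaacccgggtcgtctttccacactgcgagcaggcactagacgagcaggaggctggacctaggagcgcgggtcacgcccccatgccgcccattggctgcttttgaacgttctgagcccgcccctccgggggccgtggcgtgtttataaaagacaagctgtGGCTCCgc
ID3, chr1:23559641-23559670, minus strand: gcGGCTCCgcggtcttcggcgtCAGACcag
ATOH8, chr2:85753741-85753893, plus strand: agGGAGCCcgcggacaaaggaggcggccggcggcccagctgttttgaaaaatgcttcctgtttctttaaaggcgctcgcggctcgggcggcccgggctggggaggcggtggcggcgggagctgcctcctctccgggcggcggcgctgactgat

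RefSeq gives the 10 genes 12 windows of 250 bases before a start, 3 of them for SMAD7. GGAGCC stood in 9 of the 12, with none in that of ID2 and in 1 of the 3 of SMAD7. It stood also before BAMBI, whose fitted change lay below 0, and before the scarce ID4 and SMAD9. Of the 35116 windows of the same length before RefSeq starts, these 12 included, 30.6% held it. GGCGCC, the GC box of SMAD1 and SMAD5, stood in 2 of the 12 and in 16.4% of all windows, and GTCTG in 6 of the 12 and in 38.0% of all windows. The E-box CANNTG, the site of the basic helix-loop-helix factors that ID proteins block, stood in 7 of the 12 and in 61.8% of all windows. The 12 windows were 48.0% to 81.2% G and C, against a median of 58% over all windows, and base composition was not matched. Each match is a run of letters, and no protein was mapped to it here.

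Per unit of length, ID1 and ID3 were by far the most abundant of the 10 transcripts with UXS1 and MRPL42 siRNA. As CPM per kilobase of the principal transcript, ID1 averaged 394 with UXS1 siRNA, 419 with MRPL42 siRNA and 220.4 with control siRNA. ID3 averaged 197, 202 and 75.7 on the same scale in the same groups. With UXS1 siRNA the order of these levels ran on through BAMBI at 24.8, ID2 at 22.8, ATOH8 at 13.5, SMAD7 at 5.71, HAMP at 4.90 and SMAD6 at 3.97 CPM per kilobase, and HAMP overlapped between libraries with both of its neighbours. With MRPL42 siRNA the first 6 ranks were the same genes, followed by SMAD6 at 4.48 and HAMP at 4.17 CPM per kilobase, which overlapped. HAMP overlapped with SMAD7 there as well. With control siRNA BAMBI stood at 30.2, ID2 at 16.5, ATOH8 at 7.22, SMAD7 at 5.08, SMAD6 at 2.85 and HAMP at 1.26 CPM per kilobase. There ID3 overlapped with BAMBI, and ATOH8 with SMAD7, SMAD6 and HAMP, in each case through library c. ID4 and SMAD9 averaged 0.026 CPM per kilobase or less in every group.

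**Figure D1:**
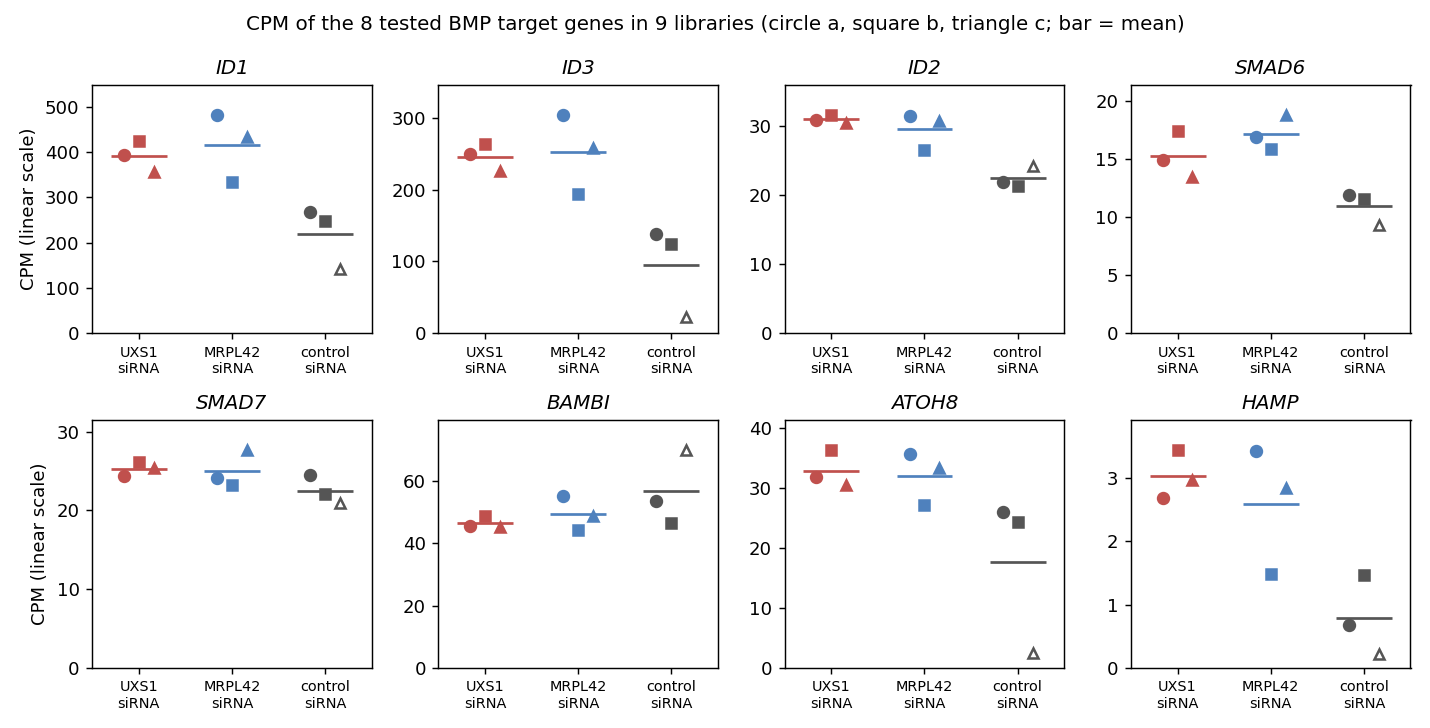
CPM on a linear axis for the 8 tested BMP target genes, with 1 point per library (circle a, square b, triangle c, open for control library c) and a bar at the mean of the 3 libraries of a group. ID1, ID2, ID3, SMAD6, ATOH8 and HAMP lie higher in all UXS1 and MRPL42 siRNA libraries than in all 3 control siRNA libraries, while SMAD7 and BAMBI overlap; control library c is far below a and b for ID3 (22.4 CPM) and ATOH8 (2.39 CPM).

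The ID proteins are helix-loop-helix factors without a DNA-binding part, which tie up E proteins and keep cells from differentiating. ID1 (chromosome 20, 31605283 to 31606515 on GRCh38) had 393, 425 and 357 CPM in UXS1 siRNA libraries a, b and c, and 482, 334 and 435 CPM in the MRPL42 siRNA libraries, against 268, 249 and 141 CPM in the control siRNA libraries. The lowest UXS1 or MRPL42 siRNA library was above the highest control library, and control library c was the lowest of the 9. The log2 fold change was 0.84 (SE 0.22, 95% interval 0.34 to 1.34) with UXS1 siRNA and 0.93 (SE 0.22, 0.43 to 1.43) with MRPL42 siRNA. Against control libraries a and b alone it was 0.59 (SE 0.13) and 0.68 (SE 0.13).

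ID3 (chromosome 1, 23557918 to 23559794, minus strand) had the widest gap of the ID genes. It had 250, 264 and 226 CPM with UXS1 siRNA and 304, 195 and 259 CPM with MRPL42 siRNA, against 138, 124 and 22.4 CPM with control siRNA. Control libraries a and b lay close together and library c far below them, and every library of the UXS1 and MRPL42 siRNA groups lay above a and b. The fitted log2 fold change of ID3 was 1.38 (SE 0.51, interval 0.24 to 2.52) with UXS1 siRNA and 1.42 (SE 0.51, interval 0.28 to 2.55) with MRPL42 siRNA. Without control library c it was 0.90 and 0.94 (SE 0.15 each), which is over 1.5 times smaller on the log2 scale in both comparisons.

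ID2 (chromosome 2, 8678845 to 8684453) lay apart by less but with the least spread. It had 30.9, 31.6 and 30.6 CPM with UXS1 siRNA and 31.5, 26.6 and 30.8 CPM with MRPL42 siRNA, against 21.9, 21.4 and 24.2 CPM with control siRNA. All 3 control libraries, c included, lay below the other 6. For ID2 the log2 fold change was 0.46 (SE 0.09) with UXS1 siRNA and 0.40 (SE 0.09) with MRPL42 siRNA, and neither passed the threshold with all 9 libraries (edgeR adjusted p of 0.132 and 0.135). Without control library c the values were 0.51 and 0.45, and ID2 rose in both comparisons (edgeR adjusted p of 0.0160 and 0.0363). ID2 overlaps the antisense gene ID2-AS1, and with strandedness of the libraries unstated, a share of its reads could belong to that gene. ID4, the fourth of the family, had 0 to 3 counts in each of the 9 libraries, too few to compare.

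SMAD6 and SMAD7 are the inhibitory SMADs, of which SMAD6 acts mainly on the BMP branch and SMAD7 on both the BMP and the TGF-beta branch. SMAD6 (chromosome 15, 66702228 to 66782848) had 14.9, 17.4 and 13.4 CPM with UXS1 siRNA and 16.9, 15.8 and 18.7 CPM with MRPL42 siRNA, against 11.9, 11.6 and 9.28 CPM with control siRNA. The groups did not overlap, but the gap from the highest control library to the lowest UXS1 siRNA library was narrow. SMAD6 had a log2 fold change of 0.48 (SE 0.13, interval 0.18 to 0.78) with UXS1 siRNA and 0.65 (SE 0.13, interval 0.35 to 0.95) with MRPL42 siRNA, and neither passed (edgeR adjusted p of 0.174 and 0.135). Left without control library c, these were 0.37 and 0.54 (edgeR adjusted p of 0.148 and 0.0635). On the annotation SMAD6 overlaps AC013564.1, ATOH8 overlaps MIR6071 on the opposite strand and SMAD9 overlaps SMAD9-IT1, so some of their reads are uncertain too.

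SMAD7 (chromosome 18, 48919853 to 48952052, minus strand) had 24.4, 26.1 and 25.4 CPM with UXS1 siRNA and 24.2, 23.3 and 27.7 CPM with MRPL42 siRNA, against 24.5, 22.1 and 21.0 CPM with control siRNA. The groups overlapped. Its log2 fold change was 0.17 (SE 0.09, interval -0.04 to 0.38) with UXS1 siRNA and 0.15 (SE 0.09) with MRPL42 siRNA (edgeR adjusted p of 0.366 and 0.356), and 0.11 and 0.10 without control library c. BAMBI, a membrane decoy that resembles a type I receptor without its kinase (chromosome 10, 28677342 to 28682939), was the one member whose fitted change lay below 0. It had 45.4, 48.6 and 45.4 CPM with UXS1 siRNA and 55.2, 44.3 and 48.9 CPM with MRPL42 siRNA, against 53.7, 46.7 and 70.0 CPM with control siRNA. The highest value was that of control library c, and the log2 fold changes of BAMBI of -0.29 and -0.20 did not pass (edgeR adjusted p of 0.319 and 0.430) and were -0.12 and -0.03 without that library. SMAD9, a receptor-activated SMAD and not an inhibitory one, which is itself a BMP target, had 0 to 5 counts per library and could not be compared.

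ATOH8 is a basic helix-loop-helix factor that BMP signalling and iron raise in liver. It (chromosome 2, 85751344 to 85788066) had 31.9, 36.3 and 30.5 CPM with UXS1 siRNA and 35.7, 27.2 and 33.4 CPM with MRPL42 siRNA, against 26.1, 24.3 and 2.39 CPM with control siRNA. Its distance from control siRNA rested mostly on library c. Its log2 fold change was 0.90 (SE 0.57, interval -0.38 to 2.19) with UXS1 siRNA and 0.87 (SE 0.57) with MRPL42 siRNA, and neither passed (edgeR adjusted p of 0.437 and 0.402). Without control library c it was 0.38 and 0.34 (SE 0.12 each), still short of the threshold (edgeR adjusted p of 0.140 and 0.147).

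HAMP encodes hepcidin, which closes the iron exporter of gut and macrophages. It is on chromosome 19, at 35280716 to 35285143. HAMP was scarce here, with 47, 77 and 46 counts with UXS1 siRNA and 53, 23 and 54 with MRPL42 siRNA, against 13, 27 and 4 with control siRNA. In CPM these were 2.69, 3.44 and 2.98 with UXS1 siRNA and 3.42, 1.49 and 2.85 with MRPL42 siRNA, against 0.671, 1.47 and 0.212 with control siRNA. MRPL42 siRNA library b and control library b were nearly equal. HAMP had a log2 fold change of 1.96 (SE 0.51, interval 0.82 to 3.09) with UXS1 siRNA and 1.72 (SE 0.51, interval 0.57 to 2.88) with MRPL42 siRNA, and neither passed (edgeR adjusted p of 0.173 and 0.142). With library c left out of the controls it was 1.51 and 1.28 (edgeR adjusted p of 0.0835 and 0.117). HAMP reached the minimum count of 10 in 3, 3 and 2 libraries of the UXS1, MRPL42 and control siRNA groups, so the UXS1 and MRPL42 siRNA libraries carried it past the filter.

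**Figure D2:**
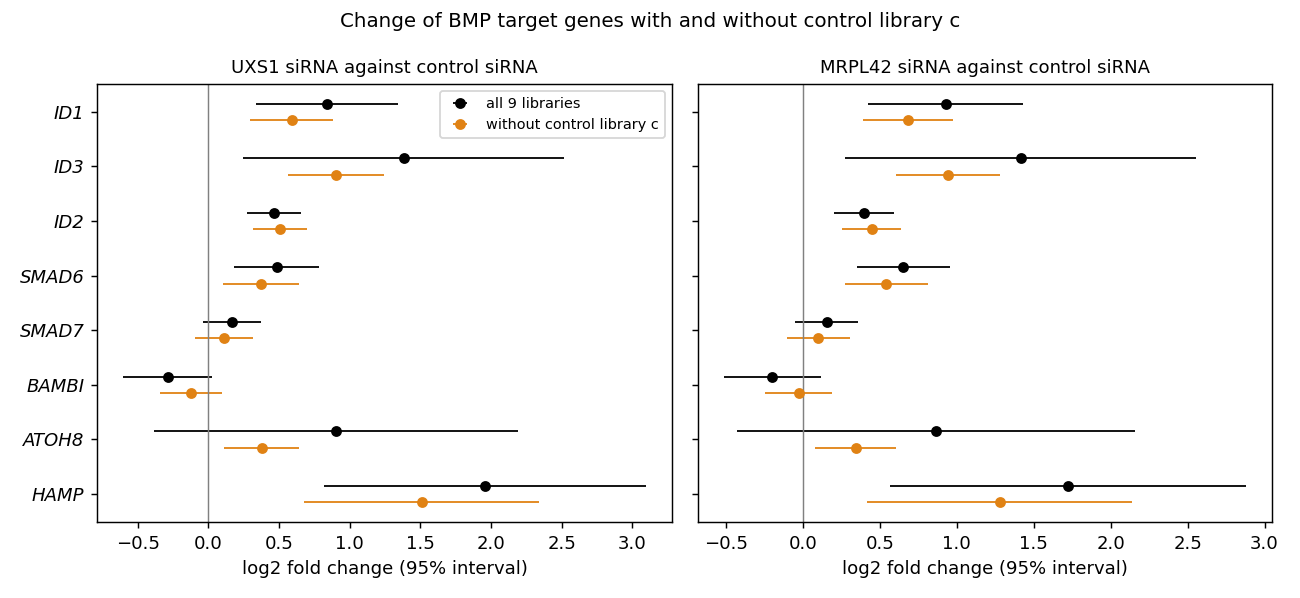
Log2 fold change (point) with its 95% interval (line) for the 8 tested BMP target genes, in UXS1 siRNA against control siRNA (left) and in MRPL42 siRNA against control siRNA (right), with all 9 libraries (black) and without control library c (orange). Leaving out control library c narrows the intervals of ID3 and ATOH8 and brings both nearer to 0 (ID3 0.90 and 0.94, ATOH8 0.38 and 0.34), while ID2 stays near 0.5.

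By the ranges of CPM alone, the known BMP targets were not uniform across the 3 siRNA groups. ID1, ID2, ID3, SMAD6, ATOH8 and HAMP lay apart from control siRNA. For HAMP the nearest libraries were MRPL42 siRNA b at 1.49 CPM and control b at 1.47 CPM. SMAD7 and BAMBI overlapped with control siRNA, and ID4 and SMAD9 had too few counts to compare. Whether the members differed from each other in their change was not tested. Of the 8 tested, 7 had a fitted change above 0 in both comparisons with control siRNA, against 49.0% and 47.9% of all genes tested with UXS1 and MRPL42 siRNA, and the median log2 fold change was 0.66 and 0.76, against medians of -0.0047 and -0.011 over all genes. These counts include ID1 and ID3, which were chosen for that direction, and HAMP, which passed the filter through the UXS1 and MRPL42 siRNA libraries, so they are a description of these libraries. Both comparisons share the 3 control siRNA libraries. Groups without overlap, higher than control siRNA, were found for 6 of the 8, ID1, ID2, ID3, SMAD6, ATOH8 and HAMP, in each comparison; over all genes the share was 15.3% with UXS1 siRNA and 11% with MRPL42 siRNA.

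With all 9 libraries, 0 of the 8 passed an edgeR adjusted p of 0.05 in either comparison, where 0.0158% and 0% of all genes passed. In each comparison 5 of the 8, ID1, ID2, ID3, SMAD6 and HAMP, had an unadjusted edgeR p below 0.05. Of all 12657 genes tested, 2249 had one with UXS1 siRNA and 2561 with MRPL42 siRNA. DESeq2 called 3 in each, ID1, ID2 and HAMP with UXS1 siRNA and ID1, ID2 and SMAD6 with MRPL42 siRNA, where it called 4.03% and 6.06% of genes; limma-voom called 0. Without control library c edgeR called ID2 and ID3 with UXS1 siRNA, and ID1, ID2 and ID3 with MRPL42 siRNA, where 1.58% and 1.33% of all genes were called. All of these counts take in ID1 and ID3, chosen for this direction, and HAMP, which the UXS1 and MRPL42 siRNA libraries carried past the filter, and all 10 genes were picked with earlier results of these data known, so nothing is read from the counts against those shares. The median of the 8 was then 0.44 and 0.49. Other settings also called a few: ID2 with UXS1 siRNA when only the 6 libraries compared were fitted, where 2.02% of all genes were called, and, without MRPL42 siRNA library b, ID2 with UXS1 siRNA and ID1, ID2 and SMAD6 with MRPL42 siRNA, where 2.78% and 6.33% of all genes were called.

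UXS1 siRNA and MRPL42 siRNA did not differ detectably in any of the 8 genes. ID1 and ID3 were chosen for standing above control siRNA in both of these groups, so this contrast is not independent of the choice. The log2 fold change of UXS1 siRNA against MRPL42 siRNA was -0.09 for ID1 (95% interval -0.59 to 0.41), 0.07 for ID2 (-0.13 to 0.26) and -0.03 for ID3 (-1.15 to 1.08). It was -0.17 for SMAD6 (-0.47 to 0.13), 0.01 for SMAD7 (-0.19 to 0.22) and -0.09 for BAMBI (-0.41 to 0.23). For ATOH8 and HAMP it was 0.04 (-1.23 to 1.30) and 0.23 (-0.78 to 1.24). All 8 overlapped between these groups, where 5.79% of all genes lay higher with UXS1 siRNA without overlap and 4.31% lower, and 0% of all genes passed an edgeR adjusted p of 0.05 in this comparison, although 218 had an unadjusted p below 0.05; DESeq2 and limma-voom called 0 as well. Without control library c, whose spread enters the shared estimate, the intervals of ID1 and ID3 narrowed to -0.35 to 0.16 and -0.33 to 0.25. Within the UXS1 siRNA group ID1 and ID3 were highest in b and lowest in c, and within the MRPL42 siRNA group highest in a and lowest in b.

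Control library c, set apart, held low levels of some BMP targets and not of others. Against control libraries a and b together, on counts and with exact intervals that cover counting error alone, its ATOH8 was 0.0946 times theirs (0.0686 to 0.128), its ID3 0.171 times (0.154 to 0.189), its HAMP 0.200 times (0.0521 to 0.554, from 4 counts) and its ID1 0.546 times (0.523 to 0.570). SMAD6 stood at 0.790 times (0.659 to 0.943), SMAD7 at 0.902 (0.799 to 1.02) and ID2 at 1.12 (0.996 to 1.26), the last 2 with intervals that include 1, and BAMBI at 1.39 (1.30 to 1.49). ID3, ATOH8 and HAMP were thus more than 2-fold lower in c than in both a and b, 3 of 8, where 4.17% of all tested genes were, and ID3 and ATOH8 more than 4-fold lower, where 1.43% were. ID3 was chosen for standing above control siRNA, c included, and HAMP passed the filter through the UXS1 and MRPL42 siRNA libraries. Nothing is therefore read from these counts against those shares. Upstream of the BMP targets, 0 of 9 receptors and co-receptors and 0 of 12 genes of signal transduction were more than 2-fold lower in c. Of 3 ligands 1 was, BMP6, and of 5 antagonists 1, ERFE, with 2.49 CPM in c and 7.17 CPM on average in a and b. Of 8 other BMP targets 2 were, DLX2 and RUNX2, both scarce, with 0.652 and 0.555 CPM on average in a and b. ERFE, DLX2 and RUNX2 were named after their values were seen. Without molecular identifiers, PCR copies count as reads, so the intervals leave out any variation but counting.

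The same library differed in markers of cell identity. Of the 9 tested hepatocyte markers 4 (ALB, SERPINA1, TF and FGB) were more than 2-fold lower in c than in both a and b, while HNF4A, named after its values were seen, had 111 CPM in c and 57.3 CPM on average in a and b. The list of stellate, fibroblast and endothelial markers summed to 118 to 132 CPM with UXS1 siRNA, 116 to 133 CPM with MRPL42 siRNA, 123 CPM in control libraries a and b each, and 327 CPM in c. The endothelial gene CDH5 had no count in any library. LUM, a matrix proteoglycan named after its values were seen, had 277 CPM in c and 36.2 CPM on average in a and b, the 1 of the 5 tested markers of the list over 2-fold higher in c than in both. COL3A1 and the endothelial receptor KDR, also named after their values were seen, were over 2-fold lower there, with 0.265 and 3.98 CPM in c and 0.718 and 32.6 CPM on average in a and b. Without LUM the list summed to 80.0 to 87.6 CPM with UXS1 siRNA, 79.8 to 93.0 CPM with MRPL42 siRNA, 86.1 and 88.1 CPM in control libraries a and b and 50.0 CPM in c, so its order against c turned. Leukocyte markers summed to 9.84 to 11.7 CPM with UXS1 siRNA, 8.34 to 9.75 CPM with MRPL42 siRNA, 7.33 and 7.74 CPM in control libraries a and b and 3.55 CPM in c. LYZ, 1 of the 2 tested leukocyte markers, was over 2-fold lower in c than in both a and b. CDH1, 1 of the 4 tested epithelial markers, was over 2-fold higher there. Both were named after their values were seen. Of all tested genes 4.17% were over 2-fold lower in c, and the share over 2-fold higher was not computed. The part of these marker differences in the values of the BMP targets was not tested, and in a bulk sample fewer cells of a type and less RNA per cell cannot be told apart.

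Upstream of the targets, no tested ligand, receptor, signal transducer or antagonist passed in edgeR or limma-voom with all 9 libraries, and DESeq2 called SMURF2 alone, lower with MRPL42 siRNA. List counts at an unadjusted edgeR p below 0.05, here and further on, stand beside a count over all 12657 genes tested. That count was 2249 with UXS1 siRNA and 2561 with MRPL42 siRNA. Of 13 BMP ligands 3 were tested, BMP2, BMP4 and BMP6. With all 9 libraries, 0 of the 3 passed in either comparison (edgeR, 0 at an unadjusted p below 0.05), and the median log2 fold change was -0.14 with UXS1 siRNA and -0.13 with MRPL42 siRNA. With control library c left out the median turned to 0.14 and 0.18, with 2 of the 3 above 0. BMP2, a ligand that sinusoidal cells give to hepatocytes, had 50.3 to 52.0 CPM with UXS1 siRNA and 45.5 to 51.4 CPM with MRPL42 siRNA, against 45.2 and 39.4 CPM in control libraries a and b and 82.2 CPM in c. BMP4 had 9.06 to 11.7 CPM with UXS1 siRNA and 10.7 to 11.1 CPM with MRPL42 siRNA, against 9.29, 9.94 and 16.5 CPM in control libraries a, b and c. Both ligands were thus highest in control library c.

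BMP6, the main inducer of hepcidin in liver, is named although it lay outside the naming rule, after its values were seen. It had 59.7, 61.3 and 60.5 CPM with UXS1 siRNA and 62.2, 63.6 and 60.1 CPM with MRPL42 siRNA, against 90.4, 83.0 and 26.8 CPM in control libraries a, b and c. The 6 UXS1 and MRPL42 siRNA libraries lay between c and the other controls. Its log2 fold change was -0.14 and -0.11 with all 9 libraries (edgeR adjusted p of 0.854 and 0.872), and without control library c BMP6 fell, by 0.53 with UXS1 siRNA and by 0.49 with MRPL42 siRNA on the log2 scale (edgeR adjusted p of 0.0024 and 0.0050). GDF2, BMP10, BMP3, BMP5, BMP7 and GDF6 had no count in any library.

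Of 12 receptors and co-receptors 9 were tested and 0 passed in either comparison with control siRNA (edgeR; 1 and 2 at an unadjusted p below 0.05 with UXS1 and MRPL42 siRNA), with a median of -0.08 and -0.13, and of 0.0036 and -0.14 without control library c. ACVR1, the type I receptor of BMP6 and BMP7, had 33.5 to 40.4 CPM with UXS1 siRNA and 35.4 to 36.3 CPM with MRPL42 siRNA, against 43.0, 41.2 and 57.8 CPM with control siRNA, without overlap. Its log2 fold changes were -0.35 and -0.40 (edgeR adjusted p of 0.218 and 0.154), and -0.20 and -0.23 without control library c. The share of all genes lower than control siRNA without overlap was not computed, so nothing is read from that of ACVR1. NEO1, a co-receptor that binds repulsive guidance molecules, had -0.16 and -0.12 (edgeR adjusted p of 0.294 and 0.375).

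All 12 genes of signal transduction were tested, among them SMAD1, SMAD5 and SMAD4, and 0 passed (edgeR; 1 and 4 at an unadjusted p below 0.05), with medians of -0.10 and -0.15, and of -0.04 and -0.13 without control library c. SMURF1 and SMURF2 are ubiquitin ligases that mark SMADs and receptors for breakdown. SMURF1 had log2 fold changes of -0.20 with UXS1 siRNA and -0.11 with MRPL42 siRNA (edgeR adjusted p of 0.242 and 0.437), and SMURF2 of -0.28 and -0.47 (edgeR adjusted p of 0.289 and 0.138). Of 17 secreted or membrane antagonists 5 were tested and 0 passed (edgeR; 0 at an unadjusted p below 0.05 in either), with medians of 0.02 and -0.10, and of 0.06 and -0.04 without control library c. CRIM1, a membrane protein that holds BMPs back, had -0.14 and -0.12 (edgeR adjusted p of 0.435 and 0.427), and FSTL3, a follistatin-like binder of activin, -0.26 and -0.10 (edgeR adjusted p of 0.555 and 0.808).

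Other known BMP targets gave a mixed picture. Of 13 on the list 8 were tested, 7 had a fitted change above 0 with UXS1 siRNA and 6 with MRPL42 siRNA, and 0 passed (edgeR; 1 at an unadjusted p below 0.05 in each), with medians of 0.24 and 0.16. When control library c was left out, 5 and 6 of the 8 lay above 0, and the medians were 0.08 and 0.12. GATA2, a zinc-finger factor of blood and vessel, had 33.2, 36.0 and 30.3 CPM with UXS1 siRNA and 31.2, 33.9 and 34.7 CPM with MRPL42 siRNA, against 27.0, 22.4 and 24.3 CPM with control siRNA. The groups did not overlap, and its log2 fold changes of 0.43 and 0.44 did not pass (edgeR adjusted p of 0.171 and 0.135), nor did 0.41 and 0.42 without control library c (edgeR adjusted p of 0.0853 and 0.0829), while DESeq2 called GATA2 in both comparisons with all 9 libraries. HES1, a repressor shared with Notch signalling, had 0.19 and 0.16 (edgeR adjusted p of 0.345 and 0.378). Of the 3 E proteins that ID proteins bind, TCF12 and TCF3 were tested. TCF12 had -0.23 and -0.24 (edgeR adjusted p of 0.198 and 0.150), and TCF3 -0.07 and 0.08 (edgeR adjusted p of 0.656 and 0.543).

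**Figure D3:**
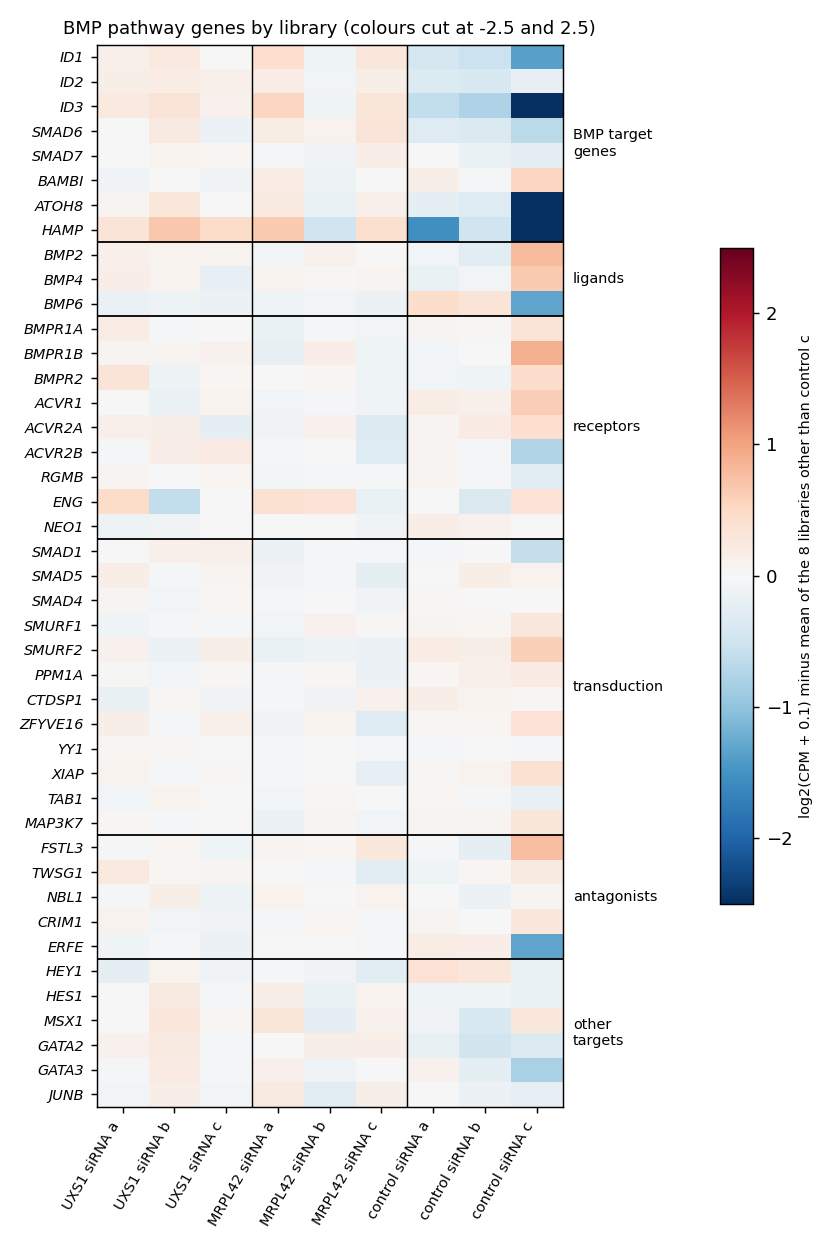
Genes of the BMP pathway with at least 1 CPM on average (rows, grouped by role) in each of the 9 libraries (columns), coloured by log2(CPM + 0.1) minus the mean of the 8 libraries other than control library c, with colours cut at -2.5 and 2.5. The deep blue cells are ID3, ATOH8 and HAMP in control library c, which also holds the lowest BMP6 (26.8 CPM) and the highest BMP2 (82.2 CPM).

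The BMP targets that lay above control siRNA include short transcripts, and short transcripts as a class stood higher with UXS1 and MRPL42 siRNA than with control siRNA. The principal transcripts of HAMP, ID1, ID3 and ID2 hold 620, 994, 1251 and 1362 bases, against a median of 2993 bases over the tested genes, while those of BAMBI, ATOH8, SMAD6 and SMAD7 hold 1877, 2438, 3835 and 4428 bases. The 1458 tested genes with 800 to 1500 bases had a median log2 fold change of 0.21 with UXS1 siRNA and 0.23 with MRPL42 siRNA. Of these, 4.80% and 4.46% lay above ID1 and 0.412% in each comparison above ID3. With control library c left out, 9.47% and 8.31% lay above ID1 and 2.93% and 3.00% above ID3. ID1 and ID3 were chosen for standing above control siRNA in these libraries, so nothing is read from these shares.

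After a correction for length in each library, ID1 stood at 0.54 with UXS1 siRNA and 0.61 with MRPL42 siRNA, ID2 at 0.29 and 0.21, ID3 at 1.20 and 1.22 and HAMP at 1.44 and 1.15. The changes of ID1 and ID2 were thus over 1.5 times smaller than without the correction. The longer SMAD6 and ATOH8 hardly moved, to 0.53 and 0.71 for SMAD6 and to 0.89 and 0.86 for ATOH8. With the correction and without control library c, a fit added after the data were seen, ID1 was at 0.34 and 0.41, ID3 at 0.75 and 0.76 and HAMP at 1.04 and 0.77. ID2 rose in both comparisons (0.38 and 0.31, edgeR adjusted p of 0.0104 and 0.0391), and SMAD6 rose with MRPL42 siRNA (0.60, edgeR adjusted p of 0.0297). That fit called 2.56% of all genes with UXS1 siRNA and 2.32% with MRPL42 siRNA. Of the other listed BMP targets it called GATA2 higher in both comparisons and HEY1, a Notch and BMP target named after its values were seen, lower with MRPL42 siRNA.

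**Figure D4:**
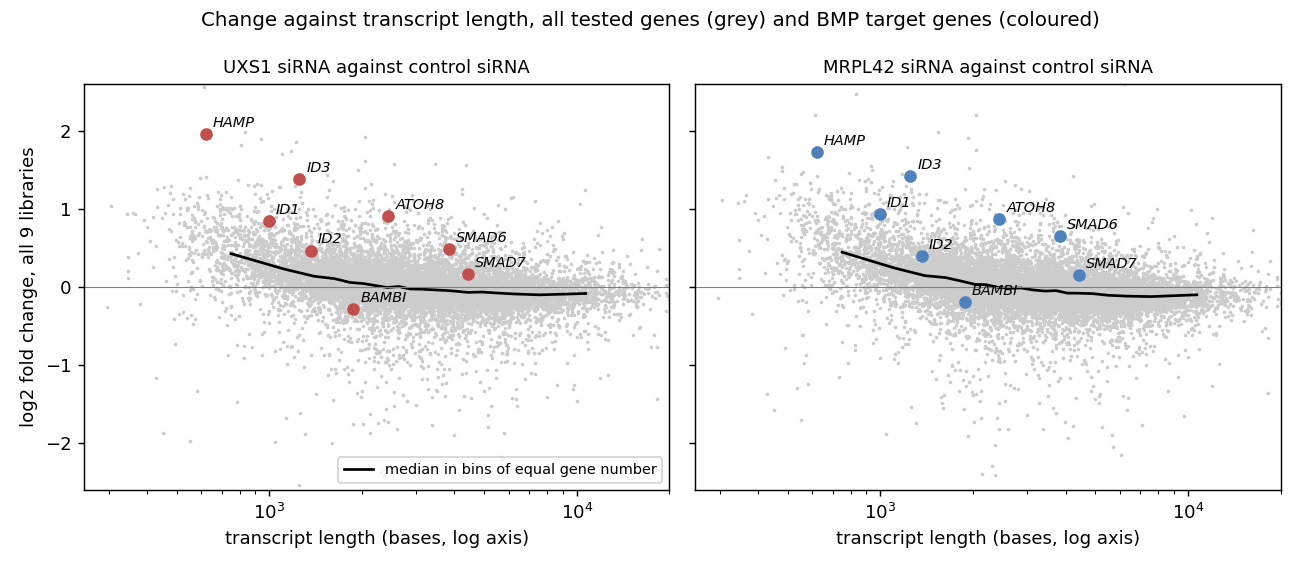
Log2 fold change with all 9 libraries against principal transcript length in bases on a log axis, for all tested genes within the range drawn (grey) and the 8 tested BMP target genes (coloured), in UXS1 siRNA against control siRNA (left) and MRPL42 siRNA against control siRNA (right). The black line, the median in bins of equal gene number, runs above 0 for short transcripts; ID1, ID3 and HAMP lie among them and above the line, and SMAD6 and ATOH8 lie above it at greater length.

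Across the 9 libraries, the pattern of ID1 was closest to that of FDPS, ELF3, CCL26, MVK and MMAB, with Pearson's r of log2 CPM of 0.995, 0.993, 0.992, 0.991 and 0.990. ID3 was closest to NANS, NRBP2, IGFBP6, ASF1B and KRT7, with r of 0.995, 0.994, 0.994, 0.993 and 0.993. Among the other BMP targets, r with ID1 was 0.972 for ID3, 0.946 for HAMP, 0.936 for SMAD6, 0.897 for ATOH8, 0.800 for SMAD7, 0.757 for ID2 and -0.638 for BAMBI. Ranked by r with ID1 among 10552 genes, ID3 came at 61, SMAD6 at 308, ATOH8 at 730, SMAD7 at 1671, ID2 at 1980 and BAMBI at 7758. Over the 8 libraries without control library c, r with ID1 was 0.990 for ID3, 0.961 for ATOH8 and 0.947 for ID2. It was 0.895 for SMAD6, 0.850 for HAMP, 0.632 for SMAD7 and 0.192 for BAMBI. For FDPS, ELF3, CCL26, MVK and MMAB it was 0.985, 0.983, 0.978, 0.971 and 0.989. In the same 8 libraries r with ID3 was 0.964 for NANS, 0.965 for NRBP2, 0.956 for IGFBP6, 0.954 for ASF1B and 0.972 for KRT7. These lay below the r with ID3 of ID1 (0.990) and ID2 (0.978). The closest genes were picked over all 9 libraries, so their choice leans on library c. The points share the groups and, in the first set, the extreme values of library c, so these figures describe likeness and carry no p-value.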

How the data were processed

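Per the labels' protocols, poly(A) RNA was captured, fragmented, reverse transcribed and amplified; the tools fastp, HISAT2, Bowtie2 and edgeR and the build hg38 stand in the submitters' processing notes, without versions or roles. The authors deposited estimated counts per library, not divided by depth or length; 83.6% to 84.9% of the counts above 0 were whole. Counts were rounded; 9 other columns of per-sample values were not used. Columns carry the letters a, b and c, tied to groups by name alone.

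The estimated counts were filtered (filterByExpr), scaled by TMM and fitted with edgeR 4.0.16 (R 4.3.3), 1 mean per group over 9 libraries, by a two-sided quasi-likelihood test with Benjamini-Hochberg adjustment over all 12657 genes and a threshold of 0.05. The design had assumed raw counts. CPM uses the TMM-adjusted total; levels between genes are CPM per kilobase. Alternatives were DESeq2 1.42.0, limma-voom (limma 3.58.1), other size factors, no filter, 6 libraries, omission of each library, a block on the column letters and a lowess offset (span 0.3) on GENCODE 29 transcript length.

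The members and lists were chosen with earlier results of these data known. The text names all 10 members, the 2 genes of each other list with the smallest unadjusted p for UXS1 siRNA where none passed, and the 5 likeliest patterns among genes of at least 5 CPM. A gene that this rule names and an upstream sequence are not reported here.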

Additional observations from a re-analysis of the deposited data

How the results depend on the processing

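With all 9 libraries 0 of the 8 tested BMP targets were called in either comparison with control siRNA. DESeq2 called 3 in each, fitting only the 6 libraries compared gave 1 with UXS1 siRNA (ID2), and omitting control library c together with the length correction gave 3 with UXS1 siRNA and 4 with MRPL42 siRNA. Leaving out each library in turn gave 0 to 2 calls with UXS1 siRNA and 0 to 3 with MRPL42 siRNA: without control library c 2 and 3, and without MRPL42 siRNA library b 1 (ID2) and 3 (ID1, ID2 and SMAD6). Other size factors, limma-voom, no filter and the length correction gave 0, and UXS1 against MRPL42 siRNA gave 0 under every setting run. Changes of sign occurred in that last comparison alone, where every 95% interval of the fit over 9 libraries included 0. Leaving out 1 library, the log2 fold change ran from -0.23 to 0.021 for ID1, from -0.0049 to 0.11 for ID2 and from -0.19 to 0.11 for ID3. It ran from -0.035 to 0.083 for SMAD7, from -0.067 to 0.11 for ATOH8 and, widest, from -0.039 to 0.47 for HAMP. SMAD7 had -0.0018 with the length correction and -0.0017 with it and without control library c. The causes were not tested. No label ties the column letters to the repeat numbers. Over all genes tested, the deviations of same-letter libraries from their group means correlated at -0.27 to 0.13 in the 9 pairs across groups. In the 18 pairs of different letters across groups they correlated at -0.24 to 0.28. A replicate block on these letters, added after the data were seen, called 0 BMP targets in each of the 3 comparisons. Of the alternatives for single genes, 373 kept their direction and their side of the threshold, 23 passed it newly and 12 changed sign. HAMP, with 4 to 77 counts per library, is limited by depth.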

Other observations

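The TGF-beta branch, which shares SMAD4 and SMAD7 with the BMP branch, gave few calls. Of 15 listed genes 13 were tested, 0 passed with all 9 libraries (edgeR; 3 and 2 at an unadjusted p below 0.05 with UXS1 and MRPL42 siRNA), and the medians were -0.10 and -0.08 (-0.06 and -0.04 without control library c). CCN2, a matrix-associated TGF-beta and YAP target, had 25.3, 28.3 and 23.5 CPM with UXS1 siRNA and 26.2, 29.5 and 27.7 CPM with MRPL42 siRNA, against 37.7, 32.3 and 39.5 CPM with control siRNA, without overlap. Its log2 fold changes were -0.51 and -0.39 (edgeR adjusted p of 0.152 and 0.135), while DESeq2 called it in both comparisons. For CCN2 too, the share of all genes lower than control siRNA without overlap was not computed. TGFBI, named after its values were seen, rose without control library c with MRPL42 siRNA (0.26, edgeR adjusted p of 0.0475).

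Of 14 genes of hepatic iron regulation around HAMP 12 were tested and 0 passed (edgeR; 1 and 2 at an unadjusted p below 0.05), with medians of -0.04 and -0.03 (0.01 and -0.04 without control library c). CEBPA, a liver factor that binds the HAMP promoter, had 127, 143 and 119 CPM with UXS1 siRNA and 131, 117 and 142 CPM with MRPL42 siRNA, against 108, 93.0 and 40.0 CPM with control siRNA. Its log2 fold changes of 0.69 and 0.70 (edgeR adjusted p of 0.259 and 0.224) were 0.36 and 0.37 without control library c. FTH1, the ferritin heavy chain, had -0.17 and -0.13 (edgeR adjusted p of 0.283 and 0.346).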
